A study of Danio rerio with 6 samples.

Results

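The genes described here are 3 SoxB1 transcription factor genes (sox2, sox3 and sox19a) and 6 genes of neuronal differentiation (neurog1, neurod1, elavl3, elavl4, isl1a and phox2a), 9 of the 32057 genes measured in sorted zebrafish neural crest (NC) cells. They were taken as a list of Ensembl identifiers, drawn up with earlier results of these data known. The study asked which genes differ between NC cells with strong and weak responses to Wnt signaling. Embryos carried Tg(7XTCF:nls-mCherry)ia5, a reporter of canonical Wnt activity, and Tg(-7.2sox10:EGFP)ir937, which marks NC cells, in the AB strain. At 24 hpf, GFP-positive cells were sorted into a high-Wnt population (mCherry+) and a low-Wnt population (mCherry−), with 3 libraries of each. Both transgenes were shared by all 6 libraries. GFP was driven by a sox10 promoter fragment, so any other cell in which it is active could enter the sort, and the nuclear mCherry protein can outlast the signal that induced it. The sources used here do not say how many embryos were pooled per library, or whether the replicates came from separate embryos. The p-values below therefore measure only the spread between these libraries, which may be technical.

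SoxB1 proteins are HMG-box transcription factors that keep cells of the neural plate and neural tube in a proliferating progenitor state. Proneural bHLH factors such as Neurog1 and then Neurod1 drive these progenitors, and cells of the cranial placodes and NC-derived ganglia, out of the cell cycle and into neuronal fates. Neurons then switch on RNA-binding proteins of the Elav family and homeodomain factors, among them Islet and Phox2a proteins, that select sensory, motor or autonomic identities. In NC, Wnt signaling acts in induction and again when pigment and sensory neuron fates are chosen.

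Values were TPM (transcript abundances as RSEM gives them), which are scaled to gene length and to a fixed total per library and keep no sequencing depth. Levels of different genes can be compared on this scale, but no counting error can be derived. Values of a population are given in the order of replicates 1, 2 and 3. SE is the standard error. Low-Wnt replicate 3 stood apart, with 9230 genes reaching 1 TPM where the others had between 13481 and 14417, and with 57.2% of its TPM in its top 100 genes where the others had between 44.8% and 46.3%. Of the 14163 genes tested, 70.2% were lowest in this library, as were 7 of the 8 members that were tested. The test results of each tested member are therefore given with and without this library. For other genes, some fold changes are given only without it, and ranks and similar profiles only with it. Among 8 NC marker genes, sox10 was present at 239.6 to 342.7 TPM in 5 libraries and at 72.9 TPM in low-Wnt replicate 3. Its promoter drives the sorting transgene, so its presence is no separate check of the NC label. In low-Wnt replicate 3, tfap2a was at 12.6 and snai2 at 2.57 TPM, against at least 102 and 32.9 TPM in the other libraries. There twist1a, at 335.6 TPM, was within the range of the others. The epidermis gene krt4 and the muscle gene actc1b reached at least 816.1 and 1006 TPM in each high-Wnt library.

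All 3 SoxB1 genes, both proneural genes and both Elav genes stood higher in each high-Wnt library than in any low-Wnt library, whereas isl1a and phox2a overlapped between the populations. The gap was widest, as a fold of the means over 6 libraries, for sox19a, sox2 and elavl3, and without low-Wnt replicate 3 for sox19a, neurog1 and sox2. On the log2(TPM + 1) scale with all 6 libraries, 8 members were abundant enough to be tested (at least 1 TPM in at least 3 libraries) and 0 were differentially expressed (DE), that is, under an adjusted p-value of 0.05 by limma. This test called 0.367% of all 14163 genes, 0.261% as higher and 0.106% as lower in high-Wnt cells. Before adjustment, 4 of the 8 tested members had a p-value under 0.05 (sox2, sox3, sox19a and elavl3), against 14.2% of all tested genes. Without low-Wnt replicate 3, 5 of the 8 tested members were DE and all 5 were higher in high-Wnt cells (sox2, sox3, sox19a, neurog1 and elavl3), where 7.17% of 15000 genes were called in that direction. No member was called lower, against 5.57% of all genes. With 6 libraries, the median log2 fold change was 1.41 over the 8 tested members and 0.51 over all tested genes, and without low-Wnt replicate 3 these medians were 1.19 and 0.05. TPM did not overlap between the populations, with high-Wnt cells above, for 7 of the 8 tested members, where 22.4% of all tested genes did so with 6 libraries and 25.1% without low-Wnt replicate 3. In these bulk libraries, fewer cells that express a gene and less of its RNA per cell cannot be told apart.

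**Figure D1:**
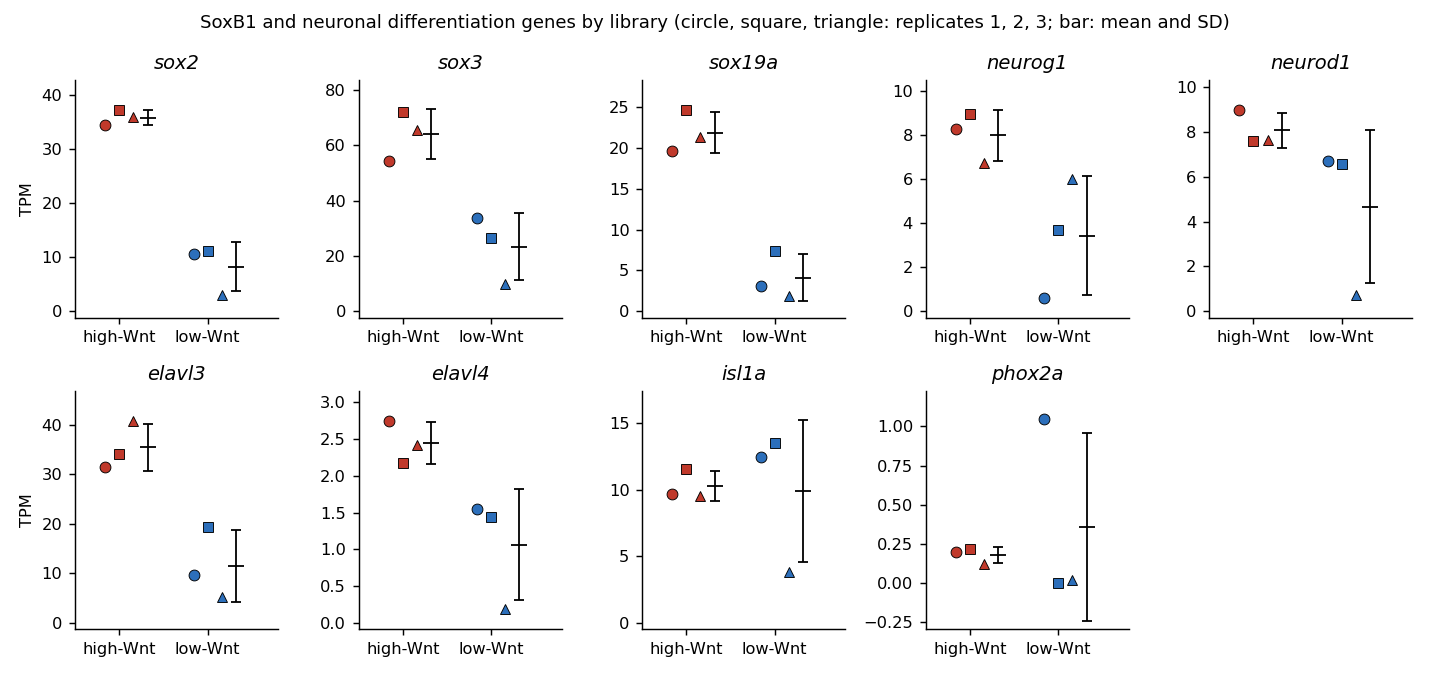
TPM of the 9 genes in the 3 high-Wnt (red) and 3 low-Wnt (blue) libraries, each panel on its own linear axis; circles, squares and triangles are replicates 1, 2 and 3, and the bars give the mean and SD. The SoxB1 genes and elavl3 show a wide gap between the populations, while isl1a and phox2a overlap.

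Among the SoxB1 genes, sox2 (ENSDARG00000070913), a pluripotency and neural progenitor factor that is also expressed in glial precursors, had a TPM of 34.4, 37.2 and 35.9 across the high-Wnt libraries. Across the low-Wnt libraries its TPM was 10.7, 11.1 and 3.01. The high-Wnt libraries lay close together and every low-Wnt library was far below them, so the mean was 4.34-fold higher in high-Wnt cells, or 3.29-fold against low-Wnt replicates 1 and 2 alone. This gave a log2 fold change of 2.15 (SE 0.52, adjusted p = 0.121 by limma) with 6 libraries and 1.63 (SE 0.15, adjusted p = 0.0013 by limma) without low-Wnt replicate 3. Of the 8 tested members, sox2 had the smallest adjusted p-value in the fit without that library.

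The most abundant member in all 6 libraries was sox3 (ENSDARG00000053569), an early marker of the neural plate and placodes. It had a TPM of 54.4, 72.1 and 65.4 across the high-Wnt libraries and of 33.7, 26.5 and 9.90 across the low-Wnt libraries. The populations did not overlap, although its relative difference was smaller than that of sox2, at 2.74-fold or 2.13-fold against low-Wnt replicates 1 and 2. The log2 fold change came to 1.56 (SE 0.48, adjusted p = 0.199 by limma) with 6 libraries and 1.06 (SE 0.18, adjusted p = 0.011 by limma) without low-Wnt replicate 3.

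The third SoxB1 gene, sox19a (ENSDARG00000010770), a fish SoxB1 gene of the early embryo and central nervous system, had a TPM of 19.6, 24.6 and 21.3 across the high-Wnt libraries. Across the low-Wnt libraries its TPM was 3.15, 7.40 and 1.84. The largest fold difference of the 9 members was its own, with a mean 5.29-fold higher in high-Wnt cells and 4.14-fold higher against low-Wnt replicates 1 and 2. Its difference on the log2 scale was 2.30 (SE 0.52, adjusted p = 0.109 by limma) with 6 libraries and 1.95 (SE 0.30, adjusted p = 0.0087 by limma) without low-Wnt replicate 3.

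The make-up of SoxB1 transcripts within each library does not depend on how libraries are scaled to each other. The summed TPM of sox2, sox3 and sox19a was 108.4, 133.9 and 122.6 across the high-Wnt libraries and 47.5, 45.0 and 14.8 across the low-Wnt libraries. Of this sum, sox3 took 50.2% to 53.9% in high-Wnt libraries and 58.9% to 70.9% in low-Wnt libraries. The sox2 share was 27.8% to 31.7% in high-Wnt libraries and 20.4% to 24.6% in low-Wnt libraries. The 3 high-Wnt libraries therefore held relatively more sox2 and less sox3 than every low-Wnt library, low-Wnt replicate 3 included. The sox19a share was 17.4% to 18.4% in high-Wnt libraries against 6.63%, 16.4% and 12.5% across the low-Wnt libraries, and the ratio of sox19a to sox2 overlapped between the populations. These within-library ratios were computed after the values were seen and were not tested.

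Of the proneural genes, neurog1 (ENSDARG00000056130), a bHLH factor that initiates sensory neuron formation in cranial and dorsal root ganglia, differed widely between the low-Wnt libraries. It had a TPM of 8.26, 8.95 and 6.72 across the high-Wnt libraries and of 0.60, 3.68 and 6.0 across the low-Wnt libraries. Its highest low-Wnt value was in low-Wnt replicate 3, which held the lowest value of every other tested member. The populations did not overlap, by a margin of less than 1 TPM, and the mean was 2.33-fold higher in high-Wnt cells, or 3.73-fold against low-Wnt replicates 1 and 2. The log2 fold change came to 1.25 (95% interval -0.17 to 2.67, adjusted p = 0.403 by limma) with 6 libraries and 1.71 (SE 0.43, adjusted p = 0.040 by limma) without low-Wnt replicate 3.

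The bHLH factor neurod1 (ENSDARG00000019566) acts after neurogenin genes in neuronal differentiation. It had a TPM of 8.98, 7.60 and 7.62 across the high-Wnt libraries and of 6.72, 6.55 and 0.73 across the low-Wnt libraries. Low-Wnt replicates 1 and 2 were just under the high-Wnt libraries, and the wide gap came from low-Wnt replicate 3. Its difference on the log2 scale was 0.96 (95% interval -0.55 to 2.47, adjusted p = 0.517 by limma) with 6 libraries and 0.24 (95% interval -0.25 to 0.73, adjusted p = 0.469 by limma) without it. Of neurod1 and neurog1, which act in sequence, neurod1 had 0.85 to 1.13 times the TPM of neurog1 in the high-Wnt libraries and 11.2, 1.78 and 0.12 times across the low-Wnt libraries. The low-Wnt ratios lay on both sides of the high-Wnt ones.

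The Elav family gene elavl3 (ENSDARG00000014420), also called HuC, encodes an RNA-binding protein that marks newly formed neurons. It had a TPM of 31.5, 34.2 and 40.7 across the high-Wnt libraries and of 9.55, 19.4 and 5.22 across the low-Wnt libraries. All high-Wnt libraries were above all low-Wnt libraries, and its mean was 3.12-fold higher, or 2.45-fold against low-Wnt replicates 1 and 2. This gave a log2 fold change of 1.72 (SE 0.50, adjusted p = 0.177 by limma) with 6 libraries and 1.31 (SE 0.28, adjusted p = 0.024 by limma) without low-Wnt replicate 3. Relative to the SoxB1 sum of the same library, elavl3 had a ratio of 0.26 to 0.33 in high-Wnt libraries and 0.20, 0.43 and 0.35 across the low-Wnt libraries, so this ratio of neuronal to progenitor transcripts overlapped between the populations.

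Its relative elavl4 (ENSDARG00000045639), also called HuD and expressed in maturing neurons, was weak throughout. It had a TPM of 2.74, 2.17 and 2.42 across the high-Wnt libraries and of 1.55, 1.44 and 0.19 across the low-Wnt libraries. The populations did not overlap, but the log2 fold change of 0.82 (95% interval -0.10 to 1.74, adjusted p = 0.400 by limma) with 6 libraries and of 0.46 (95% interval -0.17 to 1.09, adjusted p = 0.286 by limma) without low-Wnt replicate 3 did not pass the test. The pseudocount of 1 TPM understates the change of a gene at this level.

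**Figure D2:**
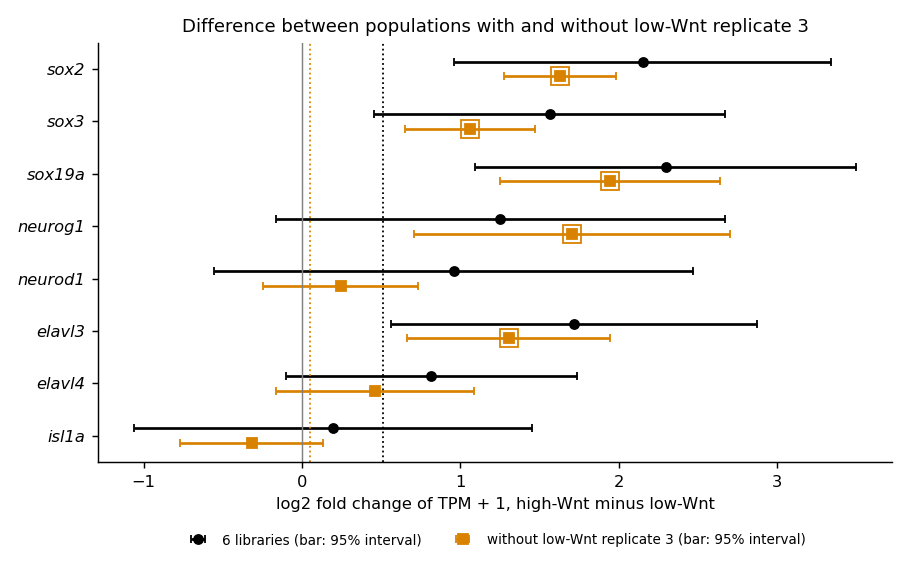
Log2 fold change of TPM + 1, high-Wnt minus low-Wnt, with its 95% interval, for the 8 tested genes with 6 libraries (black circles) and without low-Wnt replicate 3 (orange squares); large outlines mark an adjusted p-value under 0.05, and dotted lines mark the median of all tested genes in each fit (0.51 and 0.05). Outlines appear for 5 genes, all in the fit without that library.

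The homeodomain genes overlapped between the populations in TPM with all 6 libraries. The LIM homeodomain gene isl1a (ENSDARG00000004023), which acts in sensory and motor neurons, had a TPM of 9.67, 11.6 and 9.55 across the high-Wnt libraries and of 12.5, 13.5 and 3.80 across the low-Wnt libraries. Low-Wnt replicates 1 and 2 were above every high-Wnt library and low-Wnt replicate 3 was below them. The log2 fold change came to 0.20 (95% interval -1.06 to 1.46, adjusted p = 0.852 by limma) with 6 libraries and -0.32 (95% interval -0.77 to 0.13, adjusted p = 0.306 by limma) without low-Wnt replicate 3. Its direction thus turned with that library, and neither value passed the test. Without low-Wnt replicate 3, isl1a was lower in every high-Wnt library, as were 22.6% of the 15000 tested genes.

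Within each library, isl1a was set against the other members, again after the values were seen and without a test. Its ratio to the SoxB1 sum was 0.089, 0.086 and 0.078 across the high-Wnt libraries. Across the low-Wnt libraries the ratio was 0.26, 0.30 and 0.26. Relative to elavl3, isl1a had 0.23 to 0.34 times the TPM in high-Wnt libraries and 0.70 to 1.30 times in low-Wnt libraries. Neither ratio overlapped between the populations, and low-Wnt replicate 3 fell with the other low-Wnt libraries in both. The SoxB1 sum and elavl3 were themselves higher in every high-Wnt library. A gene that did not differ would thus also tend to a lower ratio there, so these ratios cannot show a change of isl1a itself.

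The paired-like homeodomain gene phox2a (ENSDARG00000007406), which acts in noradrenergic neurons of vertebrates, was under the filter and not tested. It was listed at 0.20, 0.22 and 0.12 TPM across the high-Wnt libraries and at 1.05, 0 and 0.02 TPM across the low-Wnt libraries, so the low-Wnt mean rested on replicate 1.

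The order of levels among the 9 members was then read within each library. In high-Wnt libraries sox3 was highest, followed by sox2 and elavl3, whose values overlapped, then sox19a and then isl1a. Below isl1a, neurod1 and neurog1 overlapped, and elavl4 and phox2a followed without overlap. Across the low-Wnt libraries, sox3 stayed first, but isl1a took the second, the third and the fourth place. In each low-Wnt library isl1a exceeded sox2, and in each high-Wnt library sox2 exceeded isl1a.

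Because TPM was lower for most genes in low-Wnt replicate 3, each member was also ranked among the 14163 tested genes of its own library, as a percentile where a higher value means a more abundant gene. The rank of sox2 was 79.3, 80.0 and 80.2 across the high-Wnt libraries and 54.9, 56.4 and 57.6 across the low-Wnt libraries. By rank, low-Wnt replicate 3 was no longer the lowest for sox2. However, only 9230 genes reached 1 TPM in that library, so a given TPM ranks higher there. Its sox2 at 3.01 TPM ranked at 57.6, while 10.7 TPM in low-Wnt replicate 1 ranked at 54.9. Ranks therefore do not put this library on an equal footing with the others. The rank of sox3 was 85.6 to 88.4 in the high-Wnt population and 74.2 to 77.6 in the low-Wnt population. The rank of sox19a was 68.5 to 72.9 in high-Wnt libraries and 26.2, 47.6 and 48.2 across the low-Wnt libraries. The mean rank gain of sox2 in high-Wnt cells, 23.5 points, was exceeded by 1.53% of the tested genes, and that of sox19a, 30.2 points, by 0.60%. The gain of sox3 was 11.7 points and was exceeded by 10.7% of the genes. These shares describe where the members lie among all genes, and genes are not independent replicates.

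Among the neuronal members, elavl3 ranked at 77.7 to 82.1 in high-Wnt libraries and at 52.4, 68.2 and 66.4 across the low-Wnt libraries, a gain of 17.1 points that 4.41% of the genes exceeded. In contrast, isl1a ranked lower in every high-Wnt library, at 52.1 to 56.3 against 58.4 to 61.3. Its highest rank, 61.3, was in low-Wnt replicate 3, where its TPM was lowest (3.80). The rank of neurog1 was 44.6 to 49.8 in high-Wnt libraries and 4.79, 31.3 and 68.4 across the low-Wnt libraries, so the populations overlapped by rank though not by TPM. In all, the ranks of 6 of the 8 tested members were higher in every high-Wnt library than in any low-Wnt library, where 13.3% of all tested genes were, and 1 member (isl1a) was lower throughout, where 13.9% were.

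**Figure D3:**
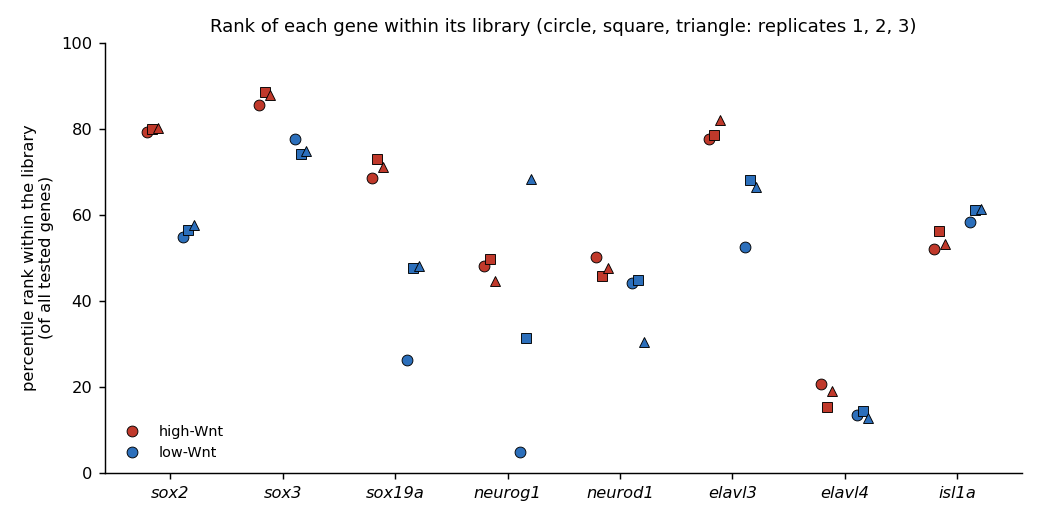
Percentile rank of the 8 tested genes among the 14163 tested genes of the same library, for high-Wnt (red) and low-Wnt (blue) replicates 1 (circle), 2 (square) and 3 (triangle). The 3 low-Wnt libraries lie together for sox2 (54.9 to 57.6) and sox3 (74.2 to 77.6), and spread widely for neurog1 (4.79 to 68.4). Fewer genes reached 1 TPM in low-Wnt replicate 3, so a given TPM ranks higher there.

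The members were also expressed relative to sox10, the NC gene whose promoter drives the sorting transgene. As a percentage of sox10 TPM, sox2 was at 14.1%, 10.8% and 11.6% across the high-Wnt libraries and at 4.13%, 4.63% and 4.13% across the low-Wnt libraries. This made sox2 2.84-fold higher per sox10 transcript in high-Wnt cells, with all 3 low-Wnt libraries close together. The percentage of sox3 was 21.1% to 22.3% against 11.1% to 13.6%, and that of sox19a was 6.87% to 8.06% against 1.22% to 3.09%. For elavl3 it was 9.98% to 13.1% against 3.69% to 8.09%, and for isl1a 3.08% to 3.97% against 4.81% to 5.65%. The ratio to sox10 was higher in every high-Wnt library for 5 of the 8 tested members (the SoxB1 genes, elavl3 and elavl4), where 9.28% of all tested genes were, and lower throughout for isl1a, where 15.5% were. For neurod1 and neurog1 the ratio overlapped. The mean for neurog1 was 2.72% in high-Wnt and 3.33% in low-Wnt libraries, with 8.23% in low-Wnt replicate 3. After this scaling, limma with 6 libraries called 0 members, where 0.0706% of all genes were called higher, and 3 members (sox2, sox19a and elavl3) had an unadjusted p-value under 0.05, against 13.6% of all tested genes. In that fit the log2 fold change of sox2 was 1.41 (SE 0.35, adjusted p = 0.170 by limma). Without low-Wnt replicate 3, limma called 3 members higher after the scaling (sox2, sox3 and sox19a), where 3.16% of the 15000 tested genes were, and sox2 had a log2 fold change of 1.40 (adjusted p = 0.0091 by limma). The scaling to sox10 was chosen after the data were seen, and sox10 itself had a log2 fold change of 0.83 (SE 0.48, adjusted p = 0.462 by limma) with 6 libraries and 0.25 (SE 0.16, adjusted p = 0.330 by limma) without low-Wnt replicate 3.

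Other neural genes were read from 3 lists. Of 13 listed genes of neural progenitors, 9 could be matched to the table and all 9 were tested. With 6 libraries 0 were DE by limma, although all 9 had an unadjusted p-value under 0.05, where 14.2% of all tested genes did. Without low-Wnt replicate 3, 5 were DE and higher, where 7.17% of all tested genes were. TPM did not overlap between the populations for the 9 genes, where 22.4% of all tested genes were higher without overlap with 6 libraries. However, nes and a SOX1 copy reached 1 TPM in no low-Wnt library, and gfap, sox19b and the other SOX1 copy in only 1. These genes could be tested only because they were high in high-Wnt cells, so their differences are no independent support. The median log2 fold change of the 9 genes, these included, was 1.31 with 6 libraries and 1.11 without low-Wnt replicate 3. The glial filament gene gfap had a TPM of 6.84, 6.04 and 7.28 across the high-Wnt libraries and of 1.87, 0 and 0.05 across the low-Wnt libraries, and was 2.18 higher on the log2 scale without low-Wnt replicate 3 (SE 0.43, adjusted p = 0.019 by limma). The Notch target her4.2 had 112.9 to 141.8 TPM in high-Wnt libraries and 53.1, 48.0 and 9.40 TPM across the low-Wnt libraries (log2 fold change 1.31 without low-Wnt replicate 3, adjusted p = 0.0026 by limma). It belongs to a family of similar her4 copies, so reads may be split among them. A SOX1 copy, which is also a SoxB1 gene (the gene table does not say whether it is sox1a or sox1b), had 3.39 to 4.70 TPM in high-Wnt libraries and 0.21 to 0.63 TPM in low-Wnt libraries (log2 fold change 1.70, adjusted p = 0.011 by limma without low-Wnt replicate 3). The other SOX1 copy, sox19b, nes and a PAX6 copy were not called in that fit (adjusted p = 0.115 to 0.176 by limma).

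Of 13 listed proneural genes other than the members, 8 were matched and 5 were tested. With 6 libraries 0 were DE by limma and 2 had an unadjusted p-value under 0.05 (ascl1a and olig2), against 14.2% of all tested genes. Without low-Wnt replicate 3, 1 was DE and higher, where 7.17% of all tested genes were. This was olig2, a bHLH factor of motor neuron and oligodendrocyte progenitors, with 1.75, 1.73 and 1.53 TPM across the high-Wnt libraries and 0.06, 0.06 and 0 TPM across the low-Wnt libraries (log2 fold change 1.33, adjusted p = 0.025 by limma). It too passed the filter through the high-Wnt libraries alone, and ascl1a reached 1 TPM in only 1 low-Wnt library. The proneural genes ascl1a and ascl1b had log2 fold changes of 1.50 and 1.84 in that fit, with adjusted p = 0.066 and 0.052 by limma. Low-Wnt replicates 1 and 2 had 2.85 and 0 TPM of ascl1b. TPM of neurod4 overlapped, at 4.66 to 6.33 in high-Wnt and 4.68, 3.36 and 0.57 across the low-Wnt libraries. It was not called in that fit (log2 fold change 0.31, adjusted p = 0.459 by limma). Nor was a NEUROD6 copy, which was highest in low-Wnt replicate 3 (1.72 TPM) and at 0 in low-Wnt replicates 1 and 2.

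Of 22 other listed neuronal genes, 16 were matched. With 6 libraries 9 were tested, 0 were DE by limma and 2 had an unadjusted p-value under 0.05, against 14.2% of all tested genes. Without low-Wnt replicate 3, 10 were tested, 2 were DE and higher and 1 was DE and lower. Of all tested genes, 7.17% and 5.57% were called in these directions. Among the 10, pou4f2 reached 1 TPM in no low-Wnt library. The beta-tubulin gene tubb5 had 217.0 to 242.2 TPM in high-Wnt libraries and 94.4, 97.9 and 15.7 TPM across the low-Wnt libraries (log2 fold change 1.27 without low-Wnt replicate 3, adjusted p = 0.0013 by limma). The synuclein gene sncb had 14.6 to 34.2 TPM in high-Wnt libraries and 4.51 to 8.14 TPM in low-Wnt libraries (log2 fold change 1.94, adjusted p = 0.016 by limma). The zinc finger gene gata3 acts in sympathetic neurons among other cells. It had 6.42 to 6.85 TPM in high-Wnt libraries and 10.6, 15.0 and 1.55 TPM across the low-Wnt libraries. Its log2 fold change was -0.83 without low-Wnt replicate 3 (adjusted p = 0.049 by limma). With 6 libraries it was -0.03 (adjusted p = 0.986 by limma). In this list, gata3 and ret had the same arrangement as isl1a, whereas hand2 did not. Low-Wnt replicates 1 and 2 were above the high-Wnt libraries and low-Wnt replicate 3 was below them. The epidermis marker tp63 and the NC marker snai2 were arranged in the same way, so it was not particular to neuronal genes. Its share over all tested genes was not computed. For ret, TPM was 3.67 to 3.92 in high-Wnt libraries and 4.26, 4.70 and 0.22 across the low-Wnt libraries, and it was not called. Without low-Wnt replicate 3, 22.6% of all tested genes were lower in every high-Wnt library. The median log2 fold change of the list was 0.53 with 6 libraries and 0.18 without low-Wnt replicate 3, beside medians of 0.51 and 0.05 over all tested genes. Genes of late autonomic identity were at or near 0, with dbh listed at 0 in all 6 libraries and th at no more than 0.25 TPM.

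**Figure D4:**
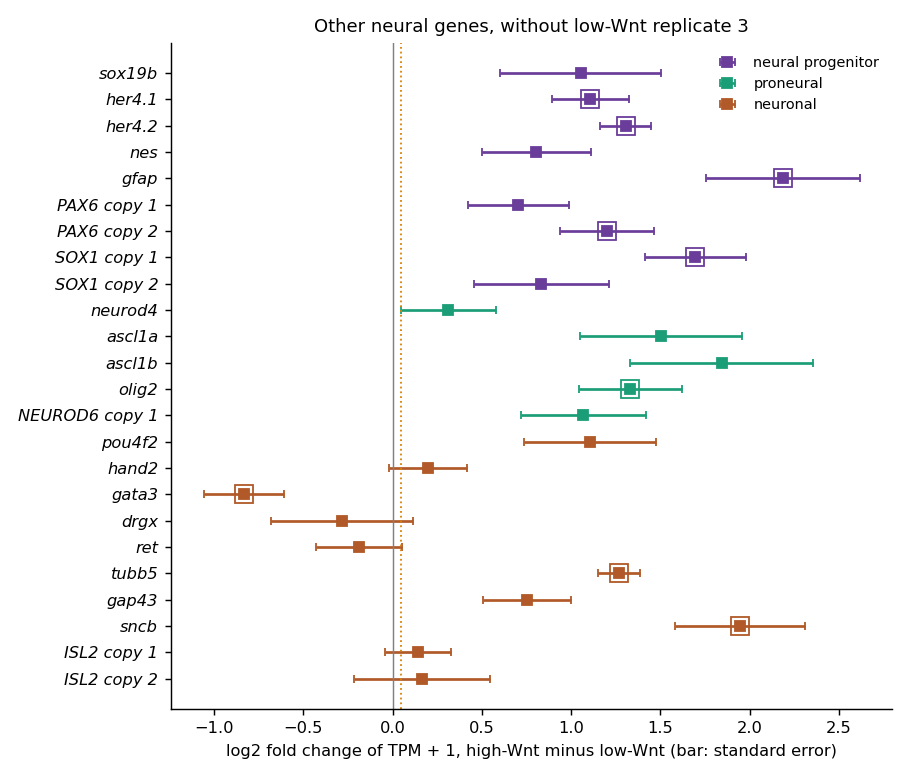
Log2 fold change of TPM + 1, high-Wnt minus low-Wnt, with its standard error, for the 24 tested genes of the neural progenitor (purple), proneural (green) and neuronal (brown) lists without low-Wnt replicate 3; large outlines mark an adjusted p-value under 0.05, and the dotted line is the median of all tested genes (0.05). All 9 progenitor genes lie to the right of 0, and gata3 is the outlined gene to the left. Of the progenitor genes, nes, gfap, sox19b and both SOX1 copies reached 1 TPM in at most 1 low-Wnt library. They could be tested only because they were high in high-Wnt cells, so their side of 0 is no independent support.

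Some epidermis, muscle and NC markers also differed between the populations without low-Wnt replicate 3, whereas no otic, placode or blood marker was called. With 6 libraries 0 of these markers were DE. There, 3 of 5 epidermis, 3 of 3 muscle and 2 of 8 NC markers had an unadjusted p-value under 0.05 (limma). The share over all tested genes was 14.2%. Of the muscle markers, myod1 reached 1 TPM in only 1 low-Wnt library. The calls that follow are those without low-Wnt replicate 3, where 7.17% of all tested genes were called higher and 5.57% lower. Of 5 epidermis markers, 3 (krt4, krt5 and cdh1) were DE and higher and 1 (tp63) was DE and lower. Their summed TPM was 1091 to 1367 in high-Wnt libraries, 490.1 to 631.7 in low-Wnt replicates 1 and 2, and 206.0 in replicate 3. In high-Wnt libraries most of this sum was krt4, at 816.1 to 1050 TPM. The fifth marker, epcam, was not called, at 154.1 to 166.1 TPM in high-Wnt and 136.2 to 168.6 TPM in low-Wnt libraries. Of 3 matched muscle markers, 2 (myog and actc1b) were DE and higher. Their list had a summed TPM of 1022 to 1697 in high-Wnt libraries, 393.7 to 403.9 in low-Wnt replicates 1 and 2, and 545.9 in replicate 3. Nearly all of this sum was actc1b, at 543.0 TPM in low-Wnt replicate 3, where myog was lowest at 2.31 TPM. Of 8 matched NC markers, 3 (foxd3, tfap2a and twist1a) were DE and higher and 1 (snai2) was lower, with a sum of 1556 to 1643 in high-Wnt libraries, 1342 to 1477 in low-Wnt replicates 1 and 2, with 801.8 in low-Wnt replicate 3. Of 4 matched otic and placode markers 3 were tested and 0 were DE by limma, with 0 under an unadjusted p-value of 0.05, and their sum was 48.6 to 54.0 TPM in high-Wnt libraries, 53.6 to 62.2 in low-Wnt replicates 1 and 2, with 43.1 in low-Wnt replicate 3. Of 2 matched blood markers 0 were DE by limma and 0 were under an unadjusted p-value of 0.05. Their sums were 86.8 to 183.0, 109.3 to 114.0 and 206.0 TPM in the same order, nearly all of it hbae1.1. The endothelium markers kdrl and cdh5 stayed at or under 1.30 TPM. The glia list held sox2 and foxd3 with erbb3b, which was not DE, and mbpa, which was listed at 0 throughout. The part of these cell types in the differences of the members was not tested.

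Finally, the genes with the most similar profile over the 6 libraries were looked up outside the members. The mean profile of the SoxB1 genes was most like those of TBX2 and pou3f3b, and that of the 5 tested neuronal members most like those of HEY2 and TBC1D1. Pearson's r was 0.997 to 0.999, but r exceeded 0.95 for 634 and 625 of the tested genes, and all profiles share the low values of low-Wnt replicate 3. TBX2, a T-box factor (the gene table gives this symbol to both zebrafish copies), had a TPM of 36.5, 42.4 and 40.9 across the high-Wnt libraries and of 10.1, 13.2 and 2.72 across the low-Wnt libraries. The POU factor gene pou3f3b, which is expressed in the central nervous system, had 6.56 to 9.47 TPM in high-Wnt libraries and 1.90, 2.46 and 0.10 TPM across the low-Wnt libraries.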

How the data were processed

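RNA of FACS-sorted NC cells was made into Smart-seq2 libraries. The authors aligned reads to GRCz11 (STAR), estimated abundance with RSEM and deposited a TPM value per Ensembl gene and library, 32057 genes in all, so depth is not kept. Their edgeR test takes counts, so it was not repeated. Columns were assigned by the sample labels. The log2(TPM + 1) values were fitted with R 4.3.3 and limma 3.58.1 (population only, intensity trend). A gene was tested if 3 or more libraries reached 1 TPM (2 or more where a library was left out), and p-values were adjusted by Benjamini-Hochberg over every tested gene. The fit was tested on simulated data with the same spread in every library, so that test does not cover a library like low-Wnt replicate 3. Plots were drawn with matplotlib 3.10.9 and tables with pandas 2.3.3 (Python 3.11.15). The table of gene names paired 28988 identifiers with symbols. It names isl1a ISL1. Listed copies that share a human symbol were matched only where both were listed, and dld was left out because the table uses this symbol for an enzyme. 1 gene of the planned set is not reported here, so counts cover 9 members. Named genes were these members, genes of the lists, and the 2 genes most correlated with each mean profile. Members and lists were chosen with earlier results of these data known. Alternatives were another pseudocount, other filters, normalizations, weights and variance models, a replicate block, scaling to NC genes, and each library left out. No gene sequences were used here.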

Additional observations from a re-analysis of the deposited data

How the results depend on the processing

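The calls depended on low-Wnt replicate 3. Across the fits that each left out 1 library, DE genes numbered from 0 to 1912 (0 in all but the fit without that library, beside 1003 to 2962 at an unadjusted p-value under 0.05), and DE members from 0 to 5, with the 5 again only in that fit. In these fits the log2 fold change of isl1a ranged from -0.32 to 0.48. With 6 libraries, 52 of 14163 tested genes were DE. This number became 17 with a pseudocount of 0.1, 4 of 23455 with no filter and 13 of 8671 with a mean TPM of at least 5. It was 13 without an intensity trend, 177 after quantile normalization and 4128 with sample quality weights. DE members stayed at 0 under these except for 1 after quantile normalization (sox2, adjusted p = 0.025 by limma) and 5 with the weights. All of these members were higher in high-Wnt cells. Of the 14163 tested genes, 92 were called higher after quantile normalization and 2571 with the weights. The weight of low-Wnt replicate 3 was 0.037, against 0.53 to 4.97 for the other libraries. The weighted fit thus largely left that library out and is no separate result from all 6 libraries. The cause of the differences between settings was not tested. The direction of isl1a turned after quantile normalization (-0.37), median centring (-0.40), sample quality weights (-0.30), scaling to sox10 (-0.54) and scaling to the NC markers (-0.51), past the threshold in none of these. The 7 members above all low-Wnt libraries kept their direction in every fit. Where libraries were not rescaled against each other, this followed from the lack of overlap and is no separate result. Only quantile normalization, median centring and scaling to sox10 or to the NC markers could have turned it.

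Without low-Wnt replicate 3, sox2 and sox19a passed the threshold in all 13 further settings, sox3 in 11, elavl3 in 7 and neurog1 in 5, with adjusted p-values by limma of up to 0.016, 0.046, 0.061, 0.102 and 0.128. The main fit without that library had 1912 DE genes of 15000 tested and 5 DE members. With no filter these were 1045 of 23286 and 3. Scaling to sox10 gave 1205 of 15000 and 3, and no intensity trend gave 1359 of 15000 and 3. Leaving out a further library gave 428 to 2414 DE genes and 2 to 5 DE members, the lowest without high-Wnt replicate 2 or 3 (2 members each, 491 and 428 genes); with only 1 low-Wnt library left, that library is assumed to vary like the others. Scaling to NC genes, and in the fit without low-Wnt replicate 3 also the filters, the trend and the further libraries left out, were added after seeing the data.

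With the replicate number as a block, 168 genes and 0 members were DE. The deviations of same-numbered libraries from their group means had correlations of 0.03, -0.01 and 0.14. With 3 libraries per group, and low-Wnt replicate 3 standing apart, these correlations cannot exclude pairs. The sample labels give only replicate numbers, so the fit without a block was kept as the main one. The description of promoters and proteins was not run.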
